A study of Mus musculus with 9 samples.

Results

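The genes described here are 8 markers of GABAergic interneurons of the striatum, namely Lhx6, Nkx2-1, Nos1, Maf, Htr3a, Calb2, Prox1 and Npas1. They were chosen by name, as the rows of the 9 deposited count files whose Ensembl identifier maps to one of these symbols, and were 8 of 44886 genes in the files. All 8 passed the filter on low counts, as did 16368 genes in all.

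RNA was sequenced from the dissected striatum of individual mouse embryos at E17.5, with 3 embryos from different brains in each of 3 groups on a background labelled C57BL/6. The methods of the study, however, keep the Islet1Cre line on a B6D2F1/J background, and the part of strain in the values was not tested. The groups are labelled Control, Islet1Cre;Ebf1fl/- and Dlx5/6::Cre;Ebf1fl/-. Ebf1 encodes a transcription factor of direct pathway striatal projection neurons (dSPN), and both Cre lines were used to delete its floxed allele opposite a null allele. Embryos came from Ebf1fl/fl females crossed with Ebf1+/- males that carried either Dlx5/6::Cre or Islet1Cre/+, so all 9 embryos inherited a floxed allele from their mother, and the controls, which the methods describe as heterozygous, have no exact genotype in the labels. Islet1Cre is a knock-in, so Cre follows the Islet1 gene, which in the striatum is active in dSPN and cholinergic neurons. The Dlx5/6::Cre transgene is active more widely, across the GABAergic lineages of the ventral telencephalon. The interneurons that express these 8 genes therefore lie largely outside the Islet1Cre lineage and inside that of Dlx5/6::Cre. The paper reports almost no Ebf1 protein in striatal neurons labelled by Nkx2.1Cre, and states that interneurons of the striatum do not express Ebf1.

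Striatal interneurons are a small minority beside the projection neurons, which are themselves GABAergic. Most are born in the medial ganglionic eminence, where the homeodomain factor Nkx2-1 induces the LIM homeodomain factor Lhx6, and migrate tangentially into the striatum, where subsets come to express neuronal nitric oxide synthase, somatostatin and neuropeptide Y, or parvalbumin. Others, with the serotonin receptor subunit Htr3a or the calcium-binding protein calretinin (Calb2), are largely of caudal or lateral ganglionic origin.

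Libraries held between 16548083 and 41507049 counts. Markers of the labelled tissue were abundant, with 14 genes of striatal projection neurons (SPN) summing to between 112080.2 and 143811 normalized counts per library (counts divided by the DESeq2 size factor of the library). Ebf1 itself ranged between 7945 and 14208 normalized counts in controls, between 13210.0 and 15343 with the Islet1Cre;Ebf1fl/- label, and between 11774 and 15312 with the Dlx5/6::Cre;Ebf1fl/- label. As these counts were summed over the whole gene and were not lower, they do not check the genotypes, and every direction below rests on the labels. Control replicate 3 and Islet1Cre;Ebf1fl/- replicate 3 each held both Xist and Y-linked counts, and Control replicate 2 was the single library with Y-linked counts and almost no Xist. The other libraries, among them all 3 labelled Dlx5/6::Cre;Ebf1fl/-, held Xist and at most 3.62 normalized Y-linked counts. Whether a library with both holds more than 1 embryo cannot be settled from counts, and the part of sex in the values was not tested. The prefix of the embryo code was shared by the 3 Islet1Cre;Ebf1fl/- embryos and Controls 1 and 2, and a second prefix by the 3 Dlx5/6::Cre;Ebf1fl/- embryos and Control 3, so prefix and genotype could be told apart only in part.

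For the gene pair at the head of this lineage, 1 window before a transcript start of each gene is shown with the letters of a motif marked. The windows are the 250 bases before a transcript start in RefSeq (GRCm38.p6, minus strand in both cases, overlapping no annotated exon), shown because Lhx6 is a known target of Nkx2-1. The first lies at chr2:36104061-36104310, before an internal start of Lhx6, and its capitals mark the only match to an NKX2-class motif (CACTTNA, read here on the opposite strand), from 134 to 128 bases before the start. The second lies at chr12:56536909-56537158, before Nkx2-1, and its capitals mark a Maf half-site (TGCTGA) from 13 to 8 bases before the start.
Lhx6 upstream window: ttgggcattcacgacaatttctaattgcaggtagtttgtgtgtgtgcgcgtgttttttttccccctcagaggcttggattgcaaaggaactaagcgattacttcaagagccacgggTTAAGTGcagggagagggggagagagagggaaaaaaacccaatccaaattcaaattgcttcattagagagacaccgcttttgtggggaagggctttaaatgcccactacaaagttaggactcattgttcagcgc
Nkx2-1 upstream window: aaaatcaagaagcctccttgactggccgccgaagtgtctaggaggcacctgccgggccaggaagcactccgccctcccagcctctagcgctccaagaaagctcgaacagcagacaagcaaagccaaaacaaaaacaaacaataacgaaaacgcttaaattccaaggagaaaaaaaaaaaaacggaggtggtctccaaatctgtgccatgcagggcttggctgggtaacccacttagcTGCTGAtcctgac

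RefSeq held 8 upstream windows for 5 of the 8 genes (Lhx6, Nkx2-1, Nos1, Prox1 and Npas1). The Nos1 window lies on the plus strand. A Prox1 window overlaps 118 exon bases, and the Lhx6 window at chr2:36104534-36104783 overlaps 14. Both strands were searched, and no window held an EBF motif (TCCCNNGGG), which 6.56% of 32851 windows of all genes held. The NKX2-class motif was in 1 of the 8 windows and in 11.5% of all windows, the Maf half-site in 1 of 8 and in 19.5%, and the homeodomain core TAATTA in 0 of 8 and in 5.29%. The window with the NKX2-class motif is the Lhx6 window shown. The windows before the other Lhx6 starts, at chr2:36105409-36105658 and chr2:36104534-36104783, held no match. Whether the sequence searched ended at the transcript start was not checked, so the percentages are of windows as searched. The values are counts of letters in short windows and do not show binding.

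Per kilobase of merged exon and scaled to library size (RPKM), Lhx6 and Nkx2-1 had the highest levels of the 8 genes in the controls. Lhx6 stood at 15.4 ± 0.597 RPKM (SD, n = 3) and Nkx2-1 at 8.73 ± 3.01 RPKM, with no overlap between their libraries or with the gene next in order. Htr3a (4.35 ± 0.759 RPKM), Calb2 (3.31 ± 0.776), Nos1 (2.64 ± 0.533), Maf (1.92 ± 0.370), Npas1 (1.53 ± 0.285) and Prox1 (1.12 ± 0.351) followed, and in this run of levels each gene overlapped its neighbour. The same 2 genes had the highest mean RPKM in both mutants. In embryos labelled Dlx5/6::Cre;Ebf1fl/-, however, the range of Nkx2-1 (5.44 to 16.5 RPKM) overlapped those of Lhx6 (9.64 to 12.8 RPKM), Calb2 (up to 5.92 RPKM) and Htr3a (up to 5.70 RPKM), and in replicate 1 Nkx2-1 lay below Htr3a. The order of the 8 means in controls was unchanged when the longest transcript replaced the merged exons.

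**Figure D1:**
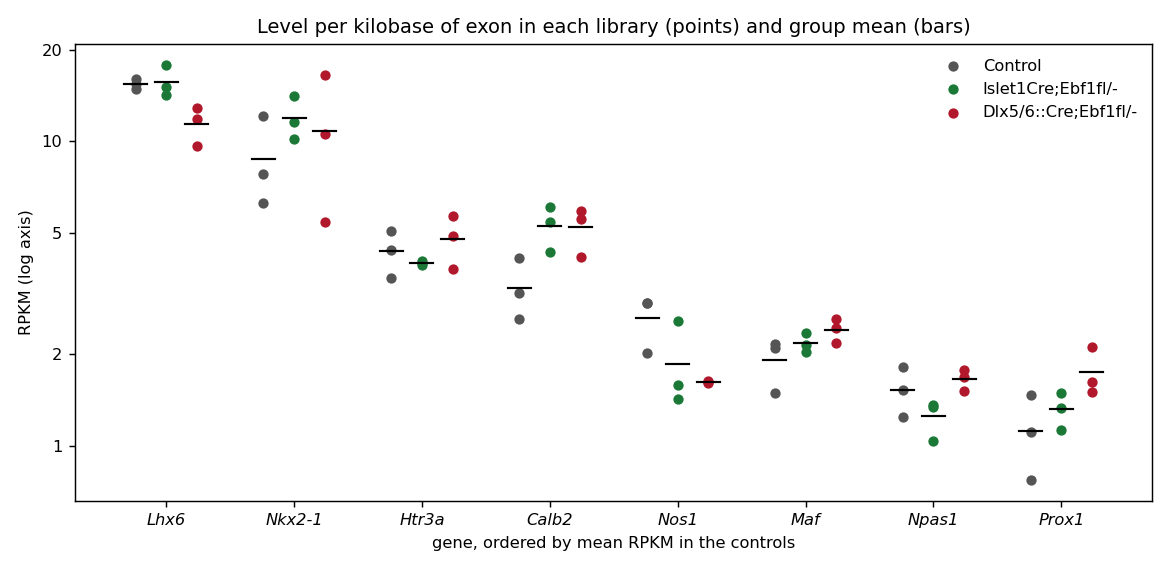
Level of each of the 8 genes in RPKM on a log axis, by gene in the order of the control means; each point is 1 library, coloured by genotype label, and each bar is the mean of 3 libraries. Lhx6 and Nkx2-1 lie above the other 6 genes in controls, with means of 15.4 and 8.73 RPKM, whereas the lowest Nkx2-1 library labelled Dlx5/6::Cre;Ebf1fl/- (5.44 RPKM) falls among Calb2 and Htr3a, and Prox1 is lowest in controls at 1.12 RPKM.

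In neither mutant did any of the 8 genes pass an adjusted p of 0.05 against controls in edgeR's quasi-likelihood test fitted over all genes. In embryos labelled Dlx5/6::Cre;Ebf1fl/-, Lhx6 and Nos1 lay below every control, and Maf, Calb2 and Prox1 above every control. In embryos labelled Islet1Cre;Ebf1fl/-, Calb2 alone had every library outside the control range, again above it. In bulk tissue, a lower value from fewer cells of a type and one from less RNA per cell cannot be told apart.

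In numbers, groups did not overlap for 1 of the 8 genes between embryos labelled Islet1Cre;Ebf1fl/- and controls, where 15.1% of all genes tested did not overlap. The count was 5 of 8 between embryos labelled Dlx5/6::Cre;Ebf1fl/- and controls, against 20.9% of all genes tested. By edgeR's adjusted p the counts of members were 0 and 0, beside 0.971% and 2.39% of all genes called. At an unadjusted p of 0.05 they were 2 of 8 and 5 of 8, beside 7.93% and 15.5% of all genes. With DESeq2's Wald test, 0 of 8 passed in the first comparison and 2 of 8, Lhx6 and Nos1, in the second, beside 2.38% and 5.33% of the genes to which it gave an adjusted p. The median log2 fold change of the 8 was 0.11 in embryos labelled Islet1Cre;Ebf1fl/- and 0.22 under the Dlx5/6::Cre;Ebf1fl/- label, where the medians over all genes were -0.0016 and 0.011. Both comparisons use the same 3 controls.

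**Figure D2:**
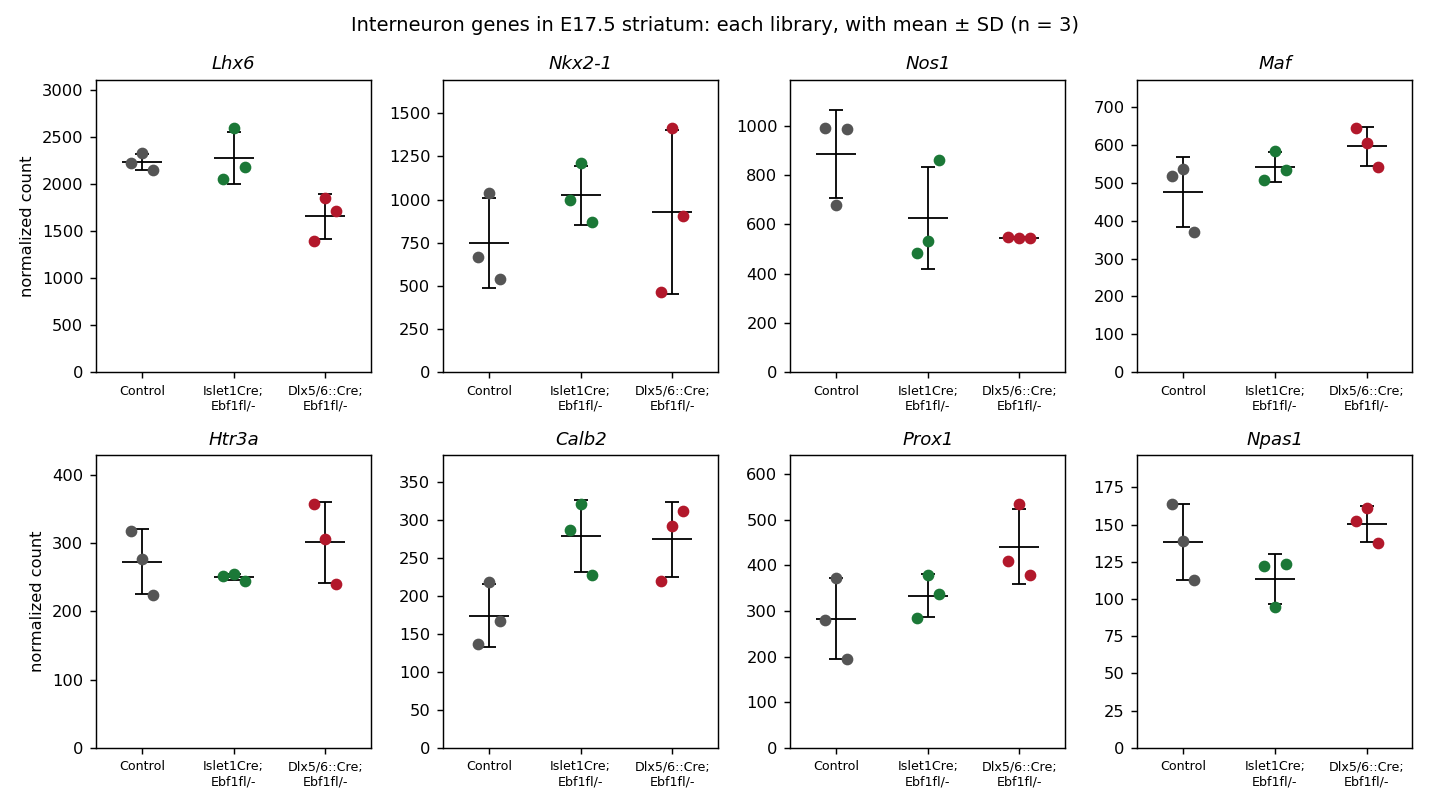
Normalized counts of the 8 genes, 1 panel per gene, with 1 point per library and the mean ± SD of 3 libraries per genotype label in black; each vertical axis starts at 0. The Dlx5/6::Cre;Ebf1fl/- points of Lhx6 (1394 to 1859) and Nos1 (543 to 549) sit below all controls, and the points of Calb2 in both mutants (219 to 321) sit above them.

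Among the factors of the medial ganglionic eminence, Lhx6 showed the difference with the narrowest interval. Lhx6 (ENSMUSG00000026890, chr2:36081953-36105408 of GRCm38, minus strand) is required for the maturation and migration of interneurons of this origin. It had 2224, 2329.9 and 2154 normalized counts in Controls 1 to 3. The counts were 2062, 2595 and 2183 in embryos labelled Islet1Cre;Ebf1fl/-, and 1394, 1859 and 1719 under the Dlx5/6::Cre;Ebf1fl/- label. All 3 libraries of the last group were thus below the other 6. Against controls, the log2 fold change was -0.43 (SE 0.11, 95% interval -0.69 to -0.18) in embryos labelled Dlx5/6::Cre;Ebf1fl/-, with an adjusted p of 0.0893 by edgeR and of 0.0235 by DESeq2. Its adjusted p ranged from 0.0235 to 0.698 over 18 other settings. In embryos labelled Islet1Cre;Ebf1fl/- it was 0.03 (SE 0.11, interval -0.23 to 0.28), with an adjusted p of 0.999 by edgeR.

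Nkx2-1 (ENSMUSG00000001496, chr12:56531958-56536908, minus strand), which specifies progenitors of the medial ganglionic eminence and stays on in several striatal and pallidal neurons, was the most variable of the 8. It had 669, 1038 and 538 normalized counts in Controls 1 to 3, 996, 1209.6 and 869.8 in embryos labelled Islet1Cre;Ebf1fl/-, and 465, 1412 and 907 under the Dlx5/6::Cre;Ebf1fl/- label. The Dlx5/6::Cre;Ebf1fl/- group held both the lowest and the highest library of all 9. The SD within genotypes was 0.557 on the log2 scale, larger than that of 90.3% of genes tested, and the intervals of its log2 fold changes were wide, at -0.30 to 1.21 with the Islet1Cre;Ebf1fl/- label, and -0.44 to 1.07 with the Dlx5/6::Cre;Ebf1fl/- label.

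Maf (ENSMUSG00000055435, chr8:115682942-115707794, minus strand), a basic leucine zipper factor of interneurons that come from the medial eminence, had 519, 538 and 370.4 normalized counts in Controls 1 to 3. It had 507, 585 and 533 in embryos labelled Islet1Cre;Ebf1fl/-, and 644, 605 and 543 under the Dlx5/6::Cre;Ebf1fl/- label. The lowest of the last group, 543, was just above the highest control, 538. The log2 fold changes were 0.19 (SE 0.15) and 0.33 (SE 0.15, interval 0.00047 to 0.65), with adjusted p of 0.954 and 0.321 by edgeR.

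Nos1 (ENSMUSG00000029361, chr5:117781032-117958840, plus strand) encodes neuronal nitric oxide synthase, the enzyme that defines one of the classical interneuron classes. Its normalized counts were 989.5, 680.3 and 987 in Controls 1 to 3, and 482, 534 and 863 in embryos labelled Islet1Cre;Ebf1fl/-. In embryos labelled Dlx5/6::Cre;Ebf1fl/- they were 549, 543 and 543, all below the controls and within 1.01-fold of each other. The log2 fold changes were -0.51 (SE 0.21, interval -0.98 to -0.04) in embryos labelled Islet1Cre;Ebf1fl/- and -0.70 (SE 0.21, interval -1.16 to -0.24) under the Dlx5/6::Cre;Ebf1fl/- label. Neither passed, with adjusted p of 0.543 and 0.131 by edgeR, and the second had an adjusted p of 0.0224 by DESeq2 and of 0.0216 by edgeR with no filter on low counts. Over 18 other settings the adjusted p ranged from 0.0851 to 0.999 for the first and from 0.0216 to 0.448 for the second. Islet1Cre;Ebf1fl/- replicate 3, one of the libraries with both Xist and Y-linked counts, was the highest of the 6 mutants, and leaving it out gave -0.80 in place of -0.51.

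The receptor Htr3a (ENSMUSG00000032269, chr9:48899213-48911099, minus strand), a subunit of the ionotropic serotonin receptor, differed little. It had 318, 277 and 224 normalized counts in Controls 1 to 3, 251, 255 and 245 in embryos labelled Islet1Cre;Ebf1fl/-, and 357, 307 and 239.7 under the Dlx5/6::Cre;Ebf1fl/- label. All groups overlapped, and the log2 fold changes of -0.13 (interval -0.53 to 0.27) and 0.14 (interval -0.26 to 0.54) leave room for differences of either sign.

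Calb2 (ENSMUSG00000003657, chr8:110137502-110168210, minus strand), which encodes calretinin, was the one gene of the 8 that lay above all controls in both mutants. Its normalized counts were 137, 218 and 167 in Controls 1 to 3, 287, 321 and 227 in embryos labelled Islet1Cre;Ebf1fl/-, and 219, 291 and 312 under the Dlx5/6::Cre;Ebf1fl/- label. The nearest pair was Control 2, at 218, and Dlx5/6::Cre;Ebf1fl/- replicate 1, at 219. The log2 fold changes were 0.68 (SE 0.21, interval 0.21 to 1.15) and 0.66 (SE 0.21, interval 0.19 to 1.13), with adjusted p of 0.279 and 0.166 by edgeR. Over 18 other settings the adjusted p ranged from 0.0777 to 0.843 and from 0.0515 to 0.732.

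Prox1 (ENSMUSG00000010175, chr1:190118035-190170714, minus strand), a homeodomain factor of interneurons from the caudal eminence, had 280.4, 373 and 195 normalized counts in Controls 1 to 3. It had 285, 379 and 336 in embryos labelled Islet1Cre;Ebf1fl/-, and 409, 535 and 380.0 under the Dlx5/6::Cre;Ebf1fl/- label. The last group lay above all controls, though only just, as its lowest library stood at 380.0 and the highest control at 373. The log2 fold changes were 0.24 (interval -0.27 to 0.74) and 0.64 (SE 0.23, interval 0.14 to 1.14), with adjusted p of 0.985 and 0.206 by edgeR.

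Npas1 (ENSMUSG00000001988, chr7:16455721-16477728, minus strand), a basic helix-loop-helix PAS factor of caudal interneurons and of neurons of the globus pallidus, had the lowest counts of the 8. It had 164, 139 and 113 normalized counts in Controls 1 to 3, 122, 94.4 and 123 in embryos labelled Islet1Cre;Ebf1fl/-, and 152, 161 and 138 under the Dlx5/6::Cre;Ebf1fl/- label. Both mutant groups overlapped the controls, with log2 fold changes of -0.30 (interval -0.74 to 0.14) and 0.12 (interval -0.32 to 0.55).

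**Figure D3:**
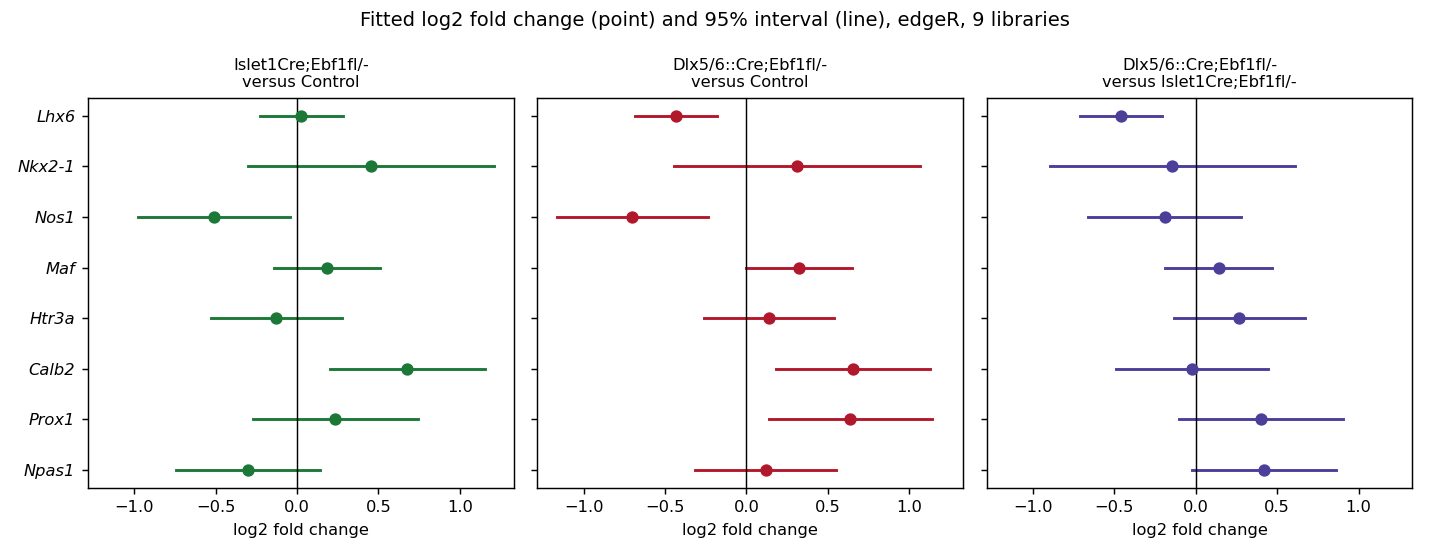
Fitted log2 fold change (points) and 95% interval (lines) of the 8 genes in the 3 comparisons, from 1 edgeR fit over 9 libraries. The intervals of Lhx6 lie below 0 in both comparisons with Dlx5/6::Cre;Ebf1fl/- as the first group (-0.69 to -0.18 and -0.71 to -0.21), and that of Nkx2-1 spans 0 in all 3.

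The mutants were also set against each other, with the Dlx5/6::Cre;Ebf1fl/- embryos as the first group. No member and none of the 16368 genes passed an adjusted p of 0.05 by edgeR in this comparison (0% called), whereas 1 of 8 members and 844 of all genes (5.16%) had an unadjusted p under 0.05, and DESeq2 called 0 members and 18 genes (0.119%). Groups did not overlap for 3 of the 8, beside 10.4% of all genes. Lhx6 was lower in every Dlx5/6::Cre;Ebf1fl/- library than in every Islet1Cre;Ebf1fl/- library, with a log2 fold change of -0.46 (SE 0.12, interval -0.71 to -0.21, adjusted p = 0.868 by edgeR). Prox1 and Npas1 were higher without overlap, at 0.40 (interval -0.10 to 0.90) and 0.42 (interval -0.03 to 0.86). For Calb2 the difference was -0.02 (interval -0.49 to 0.44), and for Nos1 -0.19 (interval -0.66 to 0.28), and these intervals leave room for differences of either sign.

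Values were also read within each embryo code prefix. Among the 5 libraries of the first prefix, which hold 3 Islet1Cre;Ebf1fl/- embryos and 2 controls, no member passed (1.03% of all genes called by edgeR), and the log2 fold changes were 0.66 for Calb2 (interval 0.14 to 1.18), -0.42 for Nos1 (interval -0.96 to 0.11) and 0.01 for Lhx6 (interval -0.26 to 0.27). The second prefix holds a single control, so no test was made within it. Its 3 Dlx5/6::Cre;Ebf1fl/- libraries were all below that control for Lhx6 and Nos1, all above it for Maf, Htr3a, Calb2, Prox1 and Npas1, and on both sides of it for Nkx2-1. Control 3 had the lowest value of all 9 libraries for Maf, Htr3a and Prox1. Without it, the log2 fold change of Maf in embryos labelled Dlx5/6::Cre;Ebf1fl/- went from 0.33 to 0.17, that of Prox1 from 0.64 to 0.43 and that of Htr3a from 0.14 to 0.012. In embryos labelled Islet1Cre;Ebf1fl/-, Maf went from 0.19 to 0.041, Prox1 from 0.24 to 0.037 and Htr3a from -0.13 to -0.25.

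Markers of some other cells were higher with the Dlx5/6::Cre;Ebf1fl/- label, most of all in replicate 1, as the plot of marker sums shows. A list of 8 genes of cortical excitatory neurons, among them Tbr1, Neurod6 and Neurod2, summed to 1081 to 2565 normalized counts in controls, 1019 to 1954 with the Islet1Cre;Ebf1fl/- label, and 6362, 2689.9 and 3137 in Dlx5/6::Cre;Ebf1fl/- replicates 1 to 3. No gene of the 8 was at 0 and none passed by edgeR, and all 8 had positive log2 fold changes, from 0.86 to 2.72, in that mutant. Tbr1 and Fezf2 lay above every control there, and the others overlapped the controls. Emx1 had 153 normalized counts in replicate 1 of that mutant, and 38.2 and 24.5 in replicates 2 and 3, where controls had 21.2 to 60.6. Replicate 1 also held 34863 normalized counts over 7 genes of progenitors and radial glia, where the other 8 libraries held 15332 to 21426. This library was the lowest of all 9 for Lhx6 and Nkx2-1 and the highest for Maf and Htr3a. Without it, the log2 fold changes against controls were -0.32 for Lhx6, -0.71 for Nos1, 0.79 for Calb2, 0.69 for Prox1 and 0.27 for Maf, with adjusted p of 0.124, 0.134, 0.0548, 0.161 and 0.410 by edgeR. The part of these other cells in the values of the 8 genes was not tested.

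**Figure D4:**
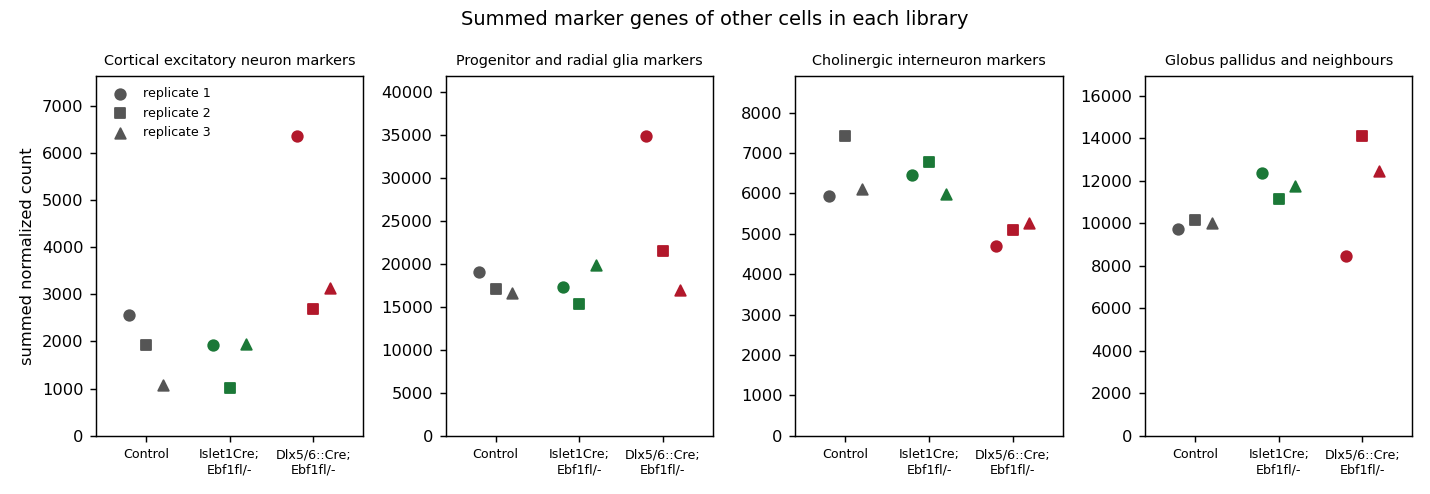
Summed normalized counts of 4 marker lists in each library, by genotype label, with the replicate number as the symbol. Dlx5/6::Cre;Ebf1fl/- replicate 1 stands apart at 6362 for cortical excitatory neurons and 34863 for progenitors and radial glia, and the 3 libraries of that group lie below all others for the cholinergic list (4692 to 5278), a sum made up largely of Isl1.

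Several of the 8 genes are shared with neighbouring structures or with cholinergic neurons, so these were read beside them. A list of 10 genes of the globus pallidus and basal forebrain, which includes Nkx2-1 and Npas1, summed to 9739.9 to 10151 normalized counts in controls, 11164 to 12349 with the Islet1Cre;Ebf1fl/- label, and 8471, 14123 and 12448 under the Dlx5/6::Cre;Ebf1fl/- label. Penk, which encodes enkephalin, is also in the SPN list, and without it, Nkx2-1 and Npas1 the other 7 genes summed to 4222 to 4910 in controls, 5487 to 6039.9 with the Islet1Cre;Ebf1fl/- label, and 4635 to 6227 with the Dlx5/6::Cre;Ebf1fl/- label. Meis1 was the largest part of these sums. It had 2107 to 2752 normalized counts in controls, 2973 to 3714 with the Islet1Cre;Ebf1fl/- label, and 2746 to 3543 with the Dlx5/6::Cre;Ebf1fl/- label. The list was not summed without Meis1, so these sums do not stand for the list as a whole. A list of 8 cholinergic genes, with Isl1, Chat and Zic4 among its highest, summed to 5940.0 to 7423 in controls, 5981 to 6782 with the Islet1Cre;Ebf1fl/- label, and 4692 to 5278 under the Dlx5/6::Cre;Ebf1fl/- label, and none of its genes passed by edgeR. Isl1, which dSPN also express, made up 76.9% to 85.3% of each sum. Without it the other 7 genes overlapped between groups, at 875 to 1388 in controls, 1045 to 1114 with the Islet1Cre;Ebf1fl/- label, and 713 to 1172 with the Dlx5/6::Cre;Ebf1fl/- label. The remaining lists (thalamus and hypothalamus, microglia, endothelium and oligodendrocyte lineage) held no gene that passed. Microglial sums were 2704 to 2974 in embryos labelled Dlx5/6::Cre;Ebf1fl/-, 2225 to 2775 with the Islet1Cre;Ebf1fl/- label, and 2403 to 2602 in controls. In the SPN list, Foxp1 was lower in the Dlx5/6::Cre;Ebf1fl/- comparison (log2 fold change -0.53, adjusted p = 0.0305 by edgeR), a call lost without any 1 of the 3 controls, the 3 Islet1Cre;Ebf1fl/- libraries or Dlx5/6::Cre;Ebf1fl/- replicate 2 (adjusted p from 0.0510 to 0.134 by edgeR). The call of Foxp1 was also lost with the code prefix as a covariate (0.148), with the 6 libraries alone (0.0942) and without both libraries with Xist and Y-linked counts (0.229).

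Other genes of the interneuron programme were described from lists chosen with earlier results known. Of 15 tested transcription factors of the medial eminence and its interneurons, 0 passed in either comparison with controls, and their median log2 fold changes were 0.17 in embryos labelled Islet1Cre;Ebf1fl/- and 0.37 under the Dlx5/6::Cre;Ebf1fl/- label. Dlx1, Dlx2 and Dlx5, among their most abundant members, are also expressed by progenitors and SPN. Dlx2, a homeodomain factor of subpallial progenitors, had 6107 normalized counts in Dlx5/6::Cre;Ebf1fl/- replicate 1 and 1078 to 2352 in the other 8 libraries, and its log2 fold change of 1.23 (SE 0.43) did not pass (adjusted p = 0.199 by edgeR). Of 10 tested genes of caudal and lateral origin, led by Nr2f1, Adarb2, Tshz1 and Etv1, 0 passed, with medians of 0.17 and 0.41. The medians over all genes tested were -0.0016 and 0.011. Sp8, Pax6 and Nr2e1, named after their values were seen, had 942, 1050 and 984 normalized counts in Dlx5/6::Cre;Ebf1fl/- replicate 1. In the other 8 libraries they had at most 135, 250 and 286. Adarb2 went the other way, with 1472 in that library and 1951 and 1892 in replicates 2 and 3 of the group. Of 17 tested relatives of the 8 genes, led by Nos1ap, Mafg, Mafk and Calb1, 0 passed, with medians of -0.01 and -0.15.

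Of 19 tested interneuron peptides, enzymes, receptors and channels, 1 passed by edgeR as lower in embryos labelled Islet1Cre;Ebf1fl/-. Under the Dlx5/6::Cre;Ebf1fl/- label, 3 passed as lower and 1 as higher. Over all genes tested, edgeR called 0.971% and 2.39% in these comparisons. Bulk counts do not show which cells the RNA of the listed genes came from. The paper describes Reln as enriched in the striatum and reduced in both mutants. Cxcr4, a chemokine receptor that guides migrating interneurons, fell by 1.57 and 1.59 on the log2 scale (adjusted p = 0.0112 and 0.00447 by edgeR). Reln, which encodes the secreted protein reelin, fell by 2.07 and Crabp1, a retinoic acid-binding protein, fell by 1.13 in embryos labelled Dlx5/6::Cre;Ebf1fl/- (adjusted p = 0.00529 and 0.0279 by edgeR). Ackr3, an atypical receptor of the same chemokine as Cxcr4, rose by 0.60 there (adjusted p = 0.0230 by edgeR). Reln kept its call in all 18 other settings, whereas the other calls did not hold in every setting. Cxcr4 in embryos labelled Islet1Cre;Ebf1fl/- lost its call without Control 1, Islet1Cre;Ebf1fl/- replicate 1 or replicate 2 (adjusted p = 0.0565, 0.0580 and 0.0842 by edgeR) and without both libraries with Xist and Y-linked counts (0.0721), and in embryos labelled Dlx5/6::Cre;Ebf1fl/- with the code prefix as a covariate (0.112). Crabp1 lost its call without Control 1, Control 2, Islet1Cre;Ebf1fl/- replicate 1 or Dlx5/6::Cre;Ebf1fl/- replicate 3 (0.0877, 0.0856, 0.0537 and 0.0600 by edgeR), and Ackr3 without any of the 3 controls (0.0989, 0.0576 and 0.0711 by edgeR). Both also lost it with the prefix as a covariate (0.495 and 0.358 by edgeR), with the 6 libraries alone (0.0634 and 0.0762) and without both libraries with Xist and Y-linked counts (0.0502 and 0.135). In embryos labelled Islet1Cre;Ebf1fl/-, Reln (log2 fold change -0.99) did not pass (adjusted p = 0.209 by edgeR), but did without replicate 3 of that group (-1.48, 0.0123), with the replicate block (0.0203), with no filter on low counts (0.00828) and without both libraries with Xist and Y-linked counts (0.0303). The soluble guanylyl cyclase genes Gucy1a1 and Gucy1b1, receptors for nitric oxide, were the most abundant of the list and did not pass.

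Sst and Npy, peptides of the Nos1 class, were read beside it. Sst, which encodes somatostatin, had 3390.1 to 3693 normalized counts in controls, 2866 to 4023 with the Islet1Cre;Ebf1fl/- label, and 2169, 3354 and 2876 under the Dlx5/6::Cre;Ebf1fl/- label, all below the controls. Npy, named after its values were seen, had 3121 to 4404 in controls, 2255 to 3537 with the Islet1Cre;Ebf1fl/- label, and 1441, 2599.7 and 2382 under the Dlx5/6::Cre;Ebf1fl/- label, again all below. Neither passed in the Dlx5/6::Cre;Ebf1fl/- comparison by edgeR (log2 fold changes -0.33 and -0.76, adjusted p = 0.331 and 0.127), and Npy had an adjusted p of 0.0153 by DESeq2. Pvalb and Vip, which mark other interneuron classes, had mean normalized counts of 0.665 and 0.506 over the 9 libraries and were not tested.

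**Figure D5:**
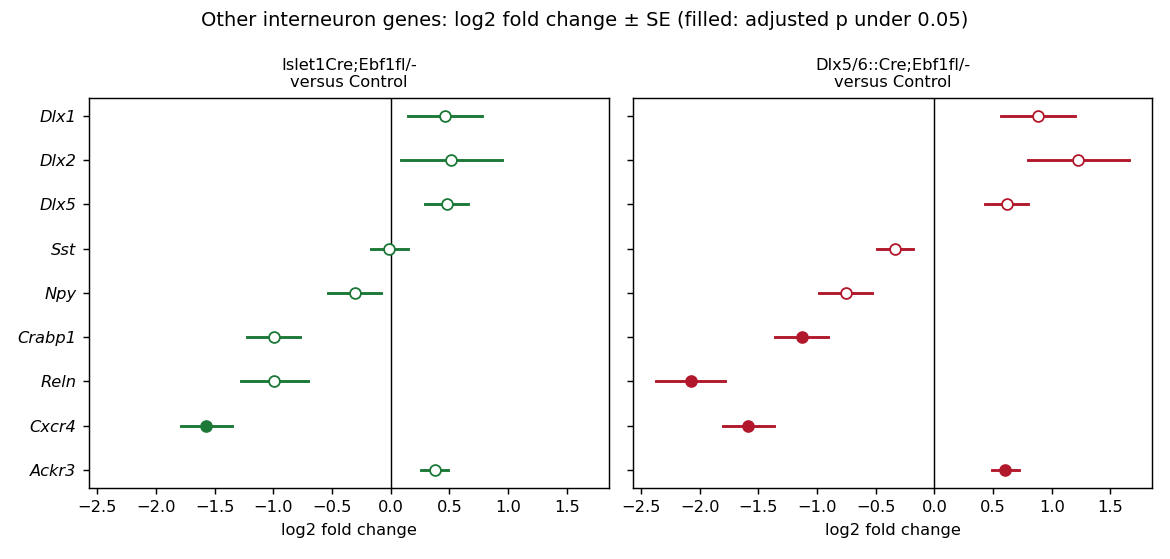
Log2 fold change against controls (points) with its SE (lines) for other genes of the interneuron lists, in embryos labelled Islet1Cre;Ebf1fl/- (left) and Dlx5/6::Cre;Ebf1fl/- (right); filled points passed an adjusted p of 0.05 by edgeR. Cxcr4 is filled on both sides (-1.57 and -1.59), and Crabp1, Reln and Ackr3 on the right.

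Genes with the most similar profile were found by the root mean square difference of log2 values over the 9 libraries, each gene centred on its own mean. The nearest to Lhx6 were Zswim7 (0.0847) and Lpcat4 (0.0909), where the median over 6888 genes compared was 0.326. The nearest were Lrch1 (0.155) and Tmem132b (0.173) for Nos1, Hap1 (0.0843) and Akap5 (0.116) for Calb2, and Olig2 (0.0882) and Myo6 (0.125) for Npas1. For Nkx2-1 they were A230050P20Rik (0.221) and Cacng3 (0.229), for Maf Pskh1 (0.0924) and Nup37 (0.0983), for Htr3a Cmtm3 (0.0592) and Zcchc24 (0.0699), and for Prox1 Rida (0.193) and Pdgfc (0.193). None of these was among the 8.

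Genes that overlap the 8 in the annotation were read where they were counted, and Gm32335, antisense at Htr3a, was not analysed here. The antisense gene Prox1os had a mean of 42.2 normalized counts, Gm27953, on the same strand within Lhx6, 35.8, and Gm26973 (at Nkx2-1), Gm26995 (at Nos1) and Gm15655 (at Maf) 8.77, 2.32 and 1.73, while Gm37028, Gm28172 and n-R5s151 had means under 1. Whether counting used strand was not stated, so reads of a gene and its antisense partner cannot be told apart. Of the 75-base windows in the exons of the 8 genes, at most 4.02% (Maf) also occurred in another gene.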

How the data were processed

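Deposited counts per Ensembl gene were used as the authors made them: poly(A)+ RNA, TruSeq Stranded libraries, 75-base reads on a NextSeq 500, alignment with STAR 2.4.0k to mm10 (versions also in the submitters' processing notes), removal of multi-mapping reads and counting with HTSeq-count 0.5.3. The strand setting of counting was not given in the sources used here. Symbols and coordinates came from GENCODE M21 (GRCm38), which matched 44133 of 44886 genes. The study's DESeq 1.8.3 was not used here. Differences were tested with edgeR 4.0.16 in R 4.3.3 (glmQLFit and glmQLFTest, TMM, filterByExpr with a minimum count of 10, all 9 libraries and genotype as the only term), with Benjamini-Hochberg adjustment over 16368 genes and a threshold of 0.05. Intervals are 95%. DESeq2 1.42.0 gave the size factors of the normalized counts and an alternative test. Other normalizations and filters, a replicate block, the embryo code prefix as a covariate, a fit to 6 libraries and leaving out each library were tried. The fitting step was tested on simulated data. Embryos of a group came from different brains, so p-values measure the spread between embryos, as far as each library holds 1 embryo. For the 2 libraries with both Xist and Y-linked counts this could not be settled. Depth was 16548083 to 41507049 counts, and figures were drawn with matplotlib.

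All 8 genes are reported. From each gene list, genes that passed in any comparison and the 4 most abundant were named, and for each of the 8 the 2 nearest profiles, among genes with a mean of at least 100 normalized counts and an SD of at least 0.5 times its own. The 8 genes, the lists and the tests were chosen with earlier results of these data known. Some genes that this rule names are not reported here.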

Additional observations from a re-analysis of the deposited data

How the results depend on the processing

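No member passed in any of the 9 fits that left out 1 embryo, in any comparison. Lhx6 and Nos1 passed under the Dlx5/6::Cre;Ebf1fl/- label (2 of 8) by DESeq2, with log2 fold changes of -0.43 and -0.70, and without a filter on low counts, with -0.43 and -0.70, where 2.67% of 26563 genes passed. The replicate number did not pair the embryos. Deviations of same-numbered embryos had a mean correlation of -0.0235, against 0.0122 for other pairs, and 4 of 9 embryos were closest to their own number. With the number as a block, 1 member, Lhx6 (-0.44, adjusted p = 0.0440 by edgeR), passed under that label, beside 2.22% of all genes, and no other member changed its call.

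The number of genes past the threshold depended strongly on the setting. Against 159 in the Islet1Cre;Ebf1fl/- comparison, DESeq2 gave 395, no filter 311, the code prefix as a covariate 61, a fit to the 6 libraries alone 259, and leaving out the 2 libraries with both Xist and Y-linked counts (chosen after seeing the data) 52. Against 392 in the Dlx5/6::Cre;Ebf1fl/- comparison these gave 860, 708, 32, 181 and 138, and against 0 between the mutants 18, 13, 1, 2 and 3. Leaving out 1 embryo gave 15 (Islet1Cre;Ebf1fl/- replicate 2) to 397 (Dlx5/6::Cre;Ebf1fl/- replicate 1), 143 (Control 1) to 613 (Dlx5/6::Cre;Ebf1fl/- replicate 1), and 0 to 4 (without Control 3). The cause was not tested.

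Small differences turned sign. Leaving out 1 embryo, the log2 fold change ranged from -0.077 to 0.097 for Lhx6 and from -0.12 to 0.12 for Sst in embryos labelled Islet1Cre;Ebf1fl/-, and under the Dlx5/6::Cre;Ebf1fl/- label from -0.12 to 0.63 for Nkx2-1, from -0.0030 to 0.27 for Htr3a and from -0.012 to 0.26 for Npas1. Between the mutants it ranged from -0.58 to 0.17 for Nkx2-1, from -0.14 to 0.11 for Calb2 and from -0.35 to 0.10 for Nos1. With the prefix as a covariate, Nkx2-1 was at 0.52 and Calb2 at 0.062 between the mutants, and Sst at 0.023 against controls (0.00057 with total counts in place of TMM). Without the libraries with both Xist and Y-linked counts, Npas1 was at -0.012 under the Dlx5/6::Cre;Ebf1fl/- label and Nos1 at 0.093 between the mutants. With the longest transcript as length, mean RPKM was 19.6 for Lhx6, 2.81 for Maf and 5.61 for Calb2, in place of 14.2, 2.17 and 4.60.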
